A study of Mus musculus with 18 samples.

Results

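The 49 interferon-stimulated genes described here were taken as a given list of gene symbols, and every symbol matched 1 row of a table of 21761 genes. The list spans the transcription factors that carry the interferon signal and the antiviral, RNA-sensing, ubiquitin-like and GTPase genes that the signal switches on. RNA was sequenced from 18 libraries of sorted mouse B lineage cells: naive B cells (nB, B220+ Fas- GL7-) and phycoerythrin-specific germinal center B cells (GCB, B220+ Fas+ GL7+ PE+) from lymph nodes, and plasma cells sorted as CD138+ from bone marrow (BMPC). Each cell type was taken from Dnmt3-sufficient mice without Cre and from Dnmt3-deficient littermates with 1 Cre allele active in B lineage cells, with 3 libraries per group. Both genotypes carried Dnmt3a fl/fl and likewise Dnmt3b fl/fl on a mixed B6;129S4 background, and the labels give no age. The nB came from unimmunized mice, and the GCB and BMPC came from mice immunized with phycoerythrin in complete Freund's adjuvant 30 days earlier, so that cell type, immunization and, for BMPC, tissue cannot be told apart. This Cre deletes the catalytic exons from early B cell stages onward, which leaves other cells of the mouse with intact Dnmt3a and Dnmt3b. A pair of mice was pooled for each GCB library. Each group of nB and GCB held 2 female and 1 male library, and each BMPC group held 1 female and 2 male libraries.

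Interferon of type I binds the receptor chains Ifnar1 and Ifnar2, and the kinases Jak1 and Tyk2 then activate STAT factors. Stat2 and Irf9 are subunits of ISGF3, a factor that binds the interferon-stimulated response element (ISRE) in the promoters of its targets. Interferon gamma acts at another element (GAS), and many guanylate-binding and immunity-related GTPase genes answer to both. Resting lymphocytes hold a low tonic level of these genes without infection.

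The motif of the factor was looked for in promoter windows of RefSeq, which ran from 250 bases before to 50 bases after each annotated start (GRCm38.p6). Windows existed for 37 of the 49 genes, and all 47 of their windows matched the mm9 genome exactly and once. The ISRE was searched on both strands as GAAA, any 2 bases, GAAA. It stood in the windows of 19 of the 37 genes (51.4%), against 1079 of 27025 genes in the whole table (4.0%). The GAS element, searched as TTC, any 3 bases, GAA on both strands, stood in 10 of the 37 (27.0%), against 2582 of 27025 (9.6%). These shares describe letters in a window. Between GCB and nB with Dnmt3, 10 of the 19 genes with an ISRE were called lower by the test described later (6.93% of all genes tested were), as were 3 of 17 tested genes with a window and no ISRE and 5 of 12 with no window. Without Dnmt3 these counts were 7, 1 and 1 (6.61% of all genes). In BMPC against nB 13 of 19 genes with an ISRE were called lower with Dnmt3 (27.6% of all genes). So were 9 of 17 with a window and no ISRE and 9 of 12 with no window. Without Dnmt3 these counts were 9, 9 and 7 (30.6%). In BMPC against GCB the counts of the 3 classes were 5, 2 and 2 with Dnmt3 (20.9%) and 5, 7 and 5 without (26.1%).

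The following 5 windows of 300 bases are shown because, among the genes with an ISRE, theirs had the largest absolute log2 differences between cell types, from 5.23 in Pydc3 to 4.12 in Gbp3. Capitals mark the ISRE, which reads as TTTC, any 2 bases, TTTC where it lies on the opposite strand. Positions are on mm9, and each sequence is written on the strand of its gene.

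Pydc3, a PYHIN family gene, chr1:175603546-175603845, plus strand: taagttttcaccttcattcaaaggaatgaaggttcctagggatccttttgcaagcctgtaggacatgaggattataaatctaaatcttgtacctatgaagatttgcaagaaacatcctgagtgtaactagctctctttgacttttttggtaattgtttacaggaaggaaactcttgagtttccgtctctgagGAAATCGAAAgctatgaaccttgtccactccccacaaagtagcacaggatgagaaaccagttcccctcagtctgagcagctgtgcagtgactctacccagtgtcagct

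Ifi203, a PYHIN family gene, chr1:175872574-175872873, minus strand: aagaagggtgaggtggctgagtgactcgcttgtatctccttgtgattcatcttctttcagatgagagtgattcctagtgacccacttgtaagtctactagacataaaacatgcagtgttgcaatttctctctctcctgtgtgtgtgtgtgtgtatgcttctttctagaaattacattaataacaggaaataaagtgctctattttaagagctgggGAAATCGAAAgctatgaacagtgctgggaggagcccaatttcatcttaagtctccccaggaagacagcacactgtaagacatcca

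Stat2, a subunit of ISGF3, chr10:127707304-127707603, plus strand: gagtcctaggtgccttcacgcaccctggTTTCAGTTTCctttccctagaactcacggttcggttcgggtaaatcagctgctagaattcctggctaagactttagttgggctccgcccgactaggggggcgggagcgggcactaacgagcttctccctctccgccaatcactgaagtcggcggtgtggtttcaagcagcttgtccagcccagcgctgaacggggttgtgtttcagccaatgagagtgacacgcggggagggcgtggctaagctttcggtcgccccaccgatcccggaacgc

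Gbp2, a guanylate-binding protein gene, chr3:142283377-142283676, plus strand: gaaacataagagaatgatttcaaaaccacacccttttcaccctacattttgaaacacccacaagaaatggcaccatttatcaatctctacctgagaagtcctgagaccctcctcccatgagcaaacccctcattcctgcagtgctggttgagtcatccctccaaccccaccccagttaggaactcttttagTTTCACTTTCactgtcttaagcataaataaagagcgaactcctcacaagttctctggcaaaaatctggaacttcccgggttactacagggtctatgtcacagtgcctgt

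Gbp3, a guanylate-binding protein gene, chr3:142222758-142223057, plus strand: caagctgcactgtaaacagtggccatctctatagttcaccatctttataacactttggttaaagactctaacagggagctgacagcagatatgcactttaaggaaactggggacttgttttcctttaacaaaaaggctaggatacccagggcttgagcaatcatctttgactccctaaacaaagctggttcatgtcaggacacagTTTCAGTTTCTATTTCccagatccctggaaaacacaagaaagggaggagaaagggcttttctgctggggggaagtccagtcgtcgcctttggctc

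The motif began 58 bases before the start in Pydc3, 35 before in Ifi203, 59 before in Gbp2 and 222 before in Stat2. In Gbp3 it began 45 and 39 bases before the start, as overlapping matches. Over all 19 genes there were 27 matches, from 222 bases before the start in Stat2 to 32 bases after it in Ifih1. Isg15, the ubiquitin-like modifier, held 3 overlapping matches between 78 and 66 bases before its start, the largest number in any window.

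**Figure D1:**
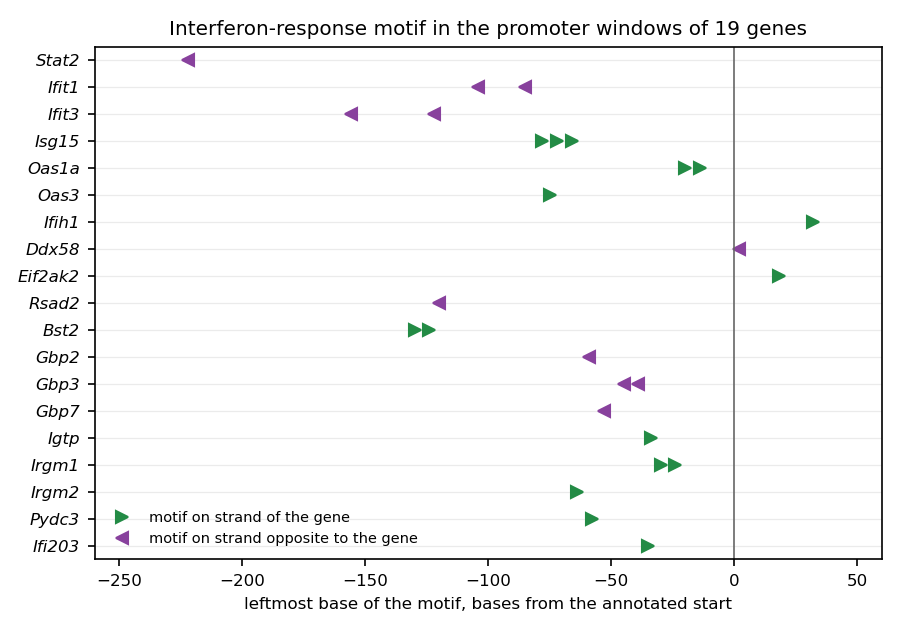
Position of each ISRE match in the promoter windows of the 19 genes that hold one, with the leftmost base of the motif on the x axis in bases from the annotated start (0) and 1 row per gene. Right-pointing triangles are matches on the strand of the gene and left-pointing ones on the opposite strand. All matches but those of Ifih1, Ddx58 and Eif2ak2 lie before the start, and Stat2 has the match farthest from it at 222 bases.

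As a group, the interferon-stimulated genes were highest in nB and lower in GCB and BMPC. Values are FPKM (fragments per kilobase of exon and per 1000000 reads on genes), and tests used log2(FPKM + 1). A gene was tested if it exceeded 1 FPKM in at least 2 libraries, a filter that kept 48 of the 49 and 11522 genes in all. The gene left out, Trex1, a DNA exonuclease, was listed at 0 in all 18 libraries. In GENCODE vM1 all of its exon bases (100%) also belong to exons of Atrip, so no level can be given for it. The mean log2(FPKM + 1) over the 48 genes was 4.17, 4.39 and 5.04 in the sufficient nB libraries and 3.96, 3.71 and 4.27 in the deficient ones. It was 2.64, 2.57 and 3.18 in sufficient GCB, and 2.89, 3.24 and 2.51 in deficient GCB. In BMPC it was 2.30, 2.12 and 2.65 with Dnmt3 and 2.32, 1.86 and 1.96 without. All 6 nB libraries therefore lay above all 12 others, while the ranges of GCB and BMPC overlapped. Over all genes tested, the same mean spanned 3.27 to 3.35 for nB libraries, 3.19 to 3.24 for GCB and 2.29 to 2.68 for BMPC.

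**Figure D2:**
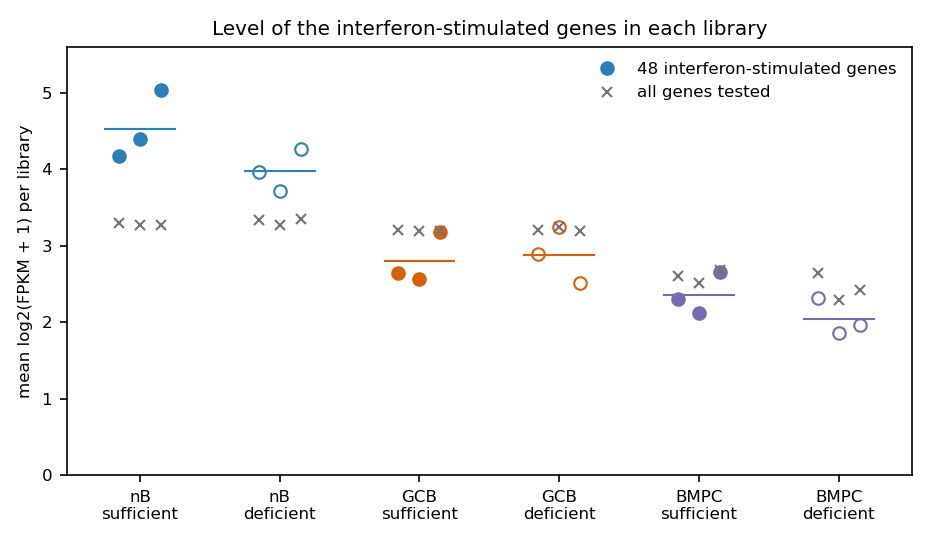
Mean log2(FPKM + 1) per library (y axis) of the 48 tested interferon-stimulated genes (circles, filled for Dnmt3-sufficient and open for Dnmt3-deficient) and of all 11522 genes tested (crosses), for the 6 groups on the x axis. Lines mark the mean of the 3 libraries. The nB circles lie between 3.71 and 5.04, above the crosses, and the BMPC circles between 1.86 and 2.65.

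Single libraries carried part of the spread. In replicate 3 of sufficient nB, 36 of 47 genes with a read in that group reached their highest value (76.6%, against 33.4% of all genes tested). Replicate 3 of sufficient GCB held the highest value for 31 of 46 genes (67.4%, against 35.4%), and replicate 2 of deficient GCB for 34 of 48 (70.8%, against 35.8%). The nB library and the sufficient GCB library were from male mice, whereas the deficient GCB library was from females, and a fit with sex as a covariate is given among the alternatives in the closing section.

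Depth differed by cell type and bears on the zeros of BMPC. Reads on genes numbered 6692516 to 8987922 per nB library, 7644544 to 8903872 per GCB library and 1355231 to 3803197 per BMPC library. The labelled cell types carried their markers: 6 naive markers summed to 1781 to 1942 FPKM in nB and at most 228 elsewhere, 7 germinal center markers to 1049 to 1161 in GCB and at most 83.5 elsewhere, and 7 plasma cell markers to 18915 to 51504 in BMPC and at most 1520 elsewhere. Not every single marker set its cell type apart. Bcl6 was at 30.5 to 81.1 in GCB and 14.5 to 64.1 in nB, and Irf4 at 0.315 to 55.2 in BMPC and 17.2 to 31 in nB. Dnmt3a was at 0 to 5.18 FPKM in sufficient and 0.0544 to 4.33 in deficient libraries, and Dnmt3b at 0 to 6.41 and 0 to 9.29. A value per gene checks no label here, since the deletion removes only part of the exons. Markers of other cell types were detected, although the flow panels of the study carried antibodies to CD11b, CD11c, Ly6-G and a T cell antigen for the removal of autofluorescent cells. Markers of plasmacytoid dendritic cells, which are strong producers of interferon, had sums between 46.7 and 249 FPKM in nB (8 of 8 with a read), between 1.9 and 5.51 in GCB (5 of 8) and between 59.3 and 242 in BMPC (5 of 8). Siglech, their defining marker, ranged over nB from 22.6 to 115, did not pass 0.0516 in GCB, and ranged over BMPC from 0 to 39.7. Most of the plasmacytoid dendritic sums in BMPC came from Cox6a2 (22.1 to 121) and Smim5 (0 to 108). Klk1, Pacsin1 and Lair1 were at 0 there. Erythroid markers summed to 1309 to 6158 in BMPC, and 8 neutrophil markers to 9.37 to 675 in BMPC and to 0 in nB and GCB. Monocyte and macrophage markers summed to 1044 to 2905 in BMPC, of which Ly6c2 was 976 to 2678, and to at most 215 elsewhere. The 6 natural killer cell markers summed to 55.6 to 149 in nB, at most 2.41 in GCB and 26.3 to 171 in BMPC, and 7 markers of early B cells to 381 to 660 in BMPC and at most 28.5 elsewhere. The part of these cells in the values that follow was not tested. In sorted bulk samples, fewer expressing cells and less RNA per cell cannot be told apart.

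**Figure D3:**
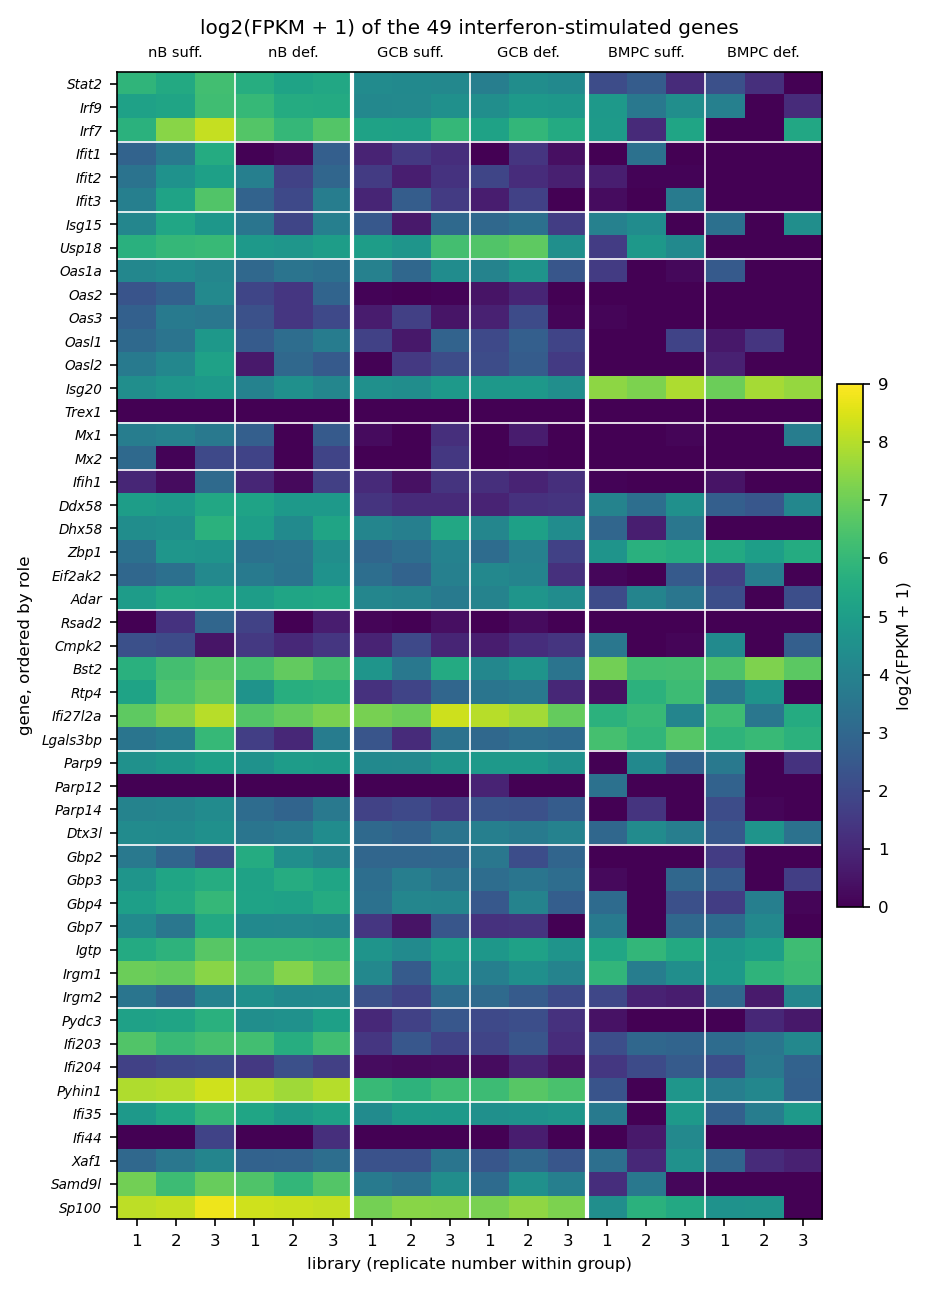
log2(FPKM + 1) of each of the 49 genes (rows, ordered by role with thin lines between roles) in each of the 18 libraries (columns, replicates 1 to 3 of each group). Suff. and def. stand for Dnmt3-sufficient and Dnmt3-deficient. The nB columns are brightest over most rows, Isg20 is brightest in BMPC, and Trex1 is at 0 throughout.

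Of the 48 genes with a read, 37 had their highest mean in nB, 8 in BMPC and 3 in GCB. In sufficient nB 42 of 49 exceeded 1 FPKM in every library, compared with 31 in sufficient GCB, 18 in sufficient BMPC and 13 in deficient BMPC. In deficient BMPC 12 of the 49 were listed at 0 in all 3 libraries. The same counts over all genes are not given here, and BMPC libraries had the fewest reads. The median over genes of the mean FPKM was 24.7 for the list and 8.73 for all genes tested in sufficient nB. It was 4.92 and 6.85 in sufficient GCB, 4.18 and 5.02 in sufficient BMPC, and 4.34 and 4.45 in deficient BMPC. The 6 genes with the highest mean over all libraries were Sp100 (169 FPKM), Ifi27l2a (129), Pyhin1 (114), Isg20 (76.2), Bst2 (70.5) and Irf7 (63.7), an order that pools the cell types and differs within them.

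The first question of the design was how cells change from nB to GCB and BMPC. A gene was called different at a Benjamini-Hochberg adjusted p of at most 0.05 over all genes tested (limma) and a log2 difference of at least 1. Between GCB and nB with Dnmt3, 18 of the 48 genes were called lower and 0 higher, where 6.93% of all genes tested were called lower and 7.22% higher. The median log2 difference was -1.62 for the interferon-stimulated genes and -0.11 for all genes tested. Without Dnmt3 9 were called lower and 0 higher, against 6.61% and 6.31% of all genes, with a median of -0.92 against -0.13. Shared by both genotypes were 7 genes, Oas2, Ddx58, Bst2, Irgm1, Pydc3, Ifi203 and Samd9l, which is 38.9% of the calls with Dnmt3 and 77.8% of those without. The share of all genes called in both genotypes is not given here or for the later comparisons, so such overlaps have no background beside them. The counts rested in part on single libraries. The 18 became 11 without replicate 3 of sufficient nB, and 11 without replicate 1 or without replicate 2 of sufficient GCB. The 9 became 5 without replicate 1 of deficient nB or replicate 3 of deficient GCB. With each library left out in turn, 10 of the 18 stayed called each time, and the 8 that did not were Stat2, Ifit1, Ifit3, Mx1, Rtp4, Bst2, Igtp and Ifi204. Of the 9, those that did not were Gbp2, Gbp7, Oas2 and Samd9l.

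Between BMPC and nB, 31 genes were called lower and 1 higher with Dnmt3, against 27.6% and 9.74% of all genes. The 1 became 2 without replicate 3 of sufficient nB. Without Dnmt3 25 were called lower and 3 higher, against 30.6% and 6.85%. The medians were -2.39 against -0.70 for all genes with Dnmt3, and -1.87 against -0.84 without. With the values of genes at or under 3 reads in every library of a group set to 3 reads, the medians of the interferon-stimulated genes were -2.37 and -1.79. Called lower in both genotypes were 23 genes, 74.2% of the calls with Dnmt3 and 92% of those without, with no share of all genes to set beside them. The calls that did not hold with every library left out were those of Ifit1, Mx2, Eif2ak2, Usp18, Irf7, Irgm2, Adar, Rsad2, Ifi35, Ifi27l2a and Parp9 with Dnmt3, and those of Ifit3, Oasl2, Oas1a, Zbp1 and Ifi27l2a without.

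BMPC and GCB differed in both directions. With Dnmt3 9 genes were called lower and 6 higher in BMPC, against 20.9% and 6.67% of all genes, and the 9 became 5 without replicate 3 of sufficient GCB. In the deficient cells 17 were called lower and 8 higher, against 26.1% and 6.14%. The median of the list was close to that of all genes, at -0.61 against -0.56 with Dnmt3 and -0.89 against -0.73 without. Isg20, Ddx58, Zbp1, Bst2, Lgals3bp and Ifi204 were called higher in both genotypes. Called lower in both were Stat2, Oas1a, Dhx58, Ifi27l2a, Gbp2, Gbp3, Pydc3, Pyhin1 and Samd9l. The calls that did not hold with every library left out were those of Pydc3, Samd9l, Gbp3, Zbp1, Ifi27l2a and Dhx58 with Dnmt3, and Pydc3, Irgm1, Oasl2, Irf7, Parp14, Gbp3 and Parp9 without. The comparisons share libraries with each other and are not independent.

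**Figure D4:**
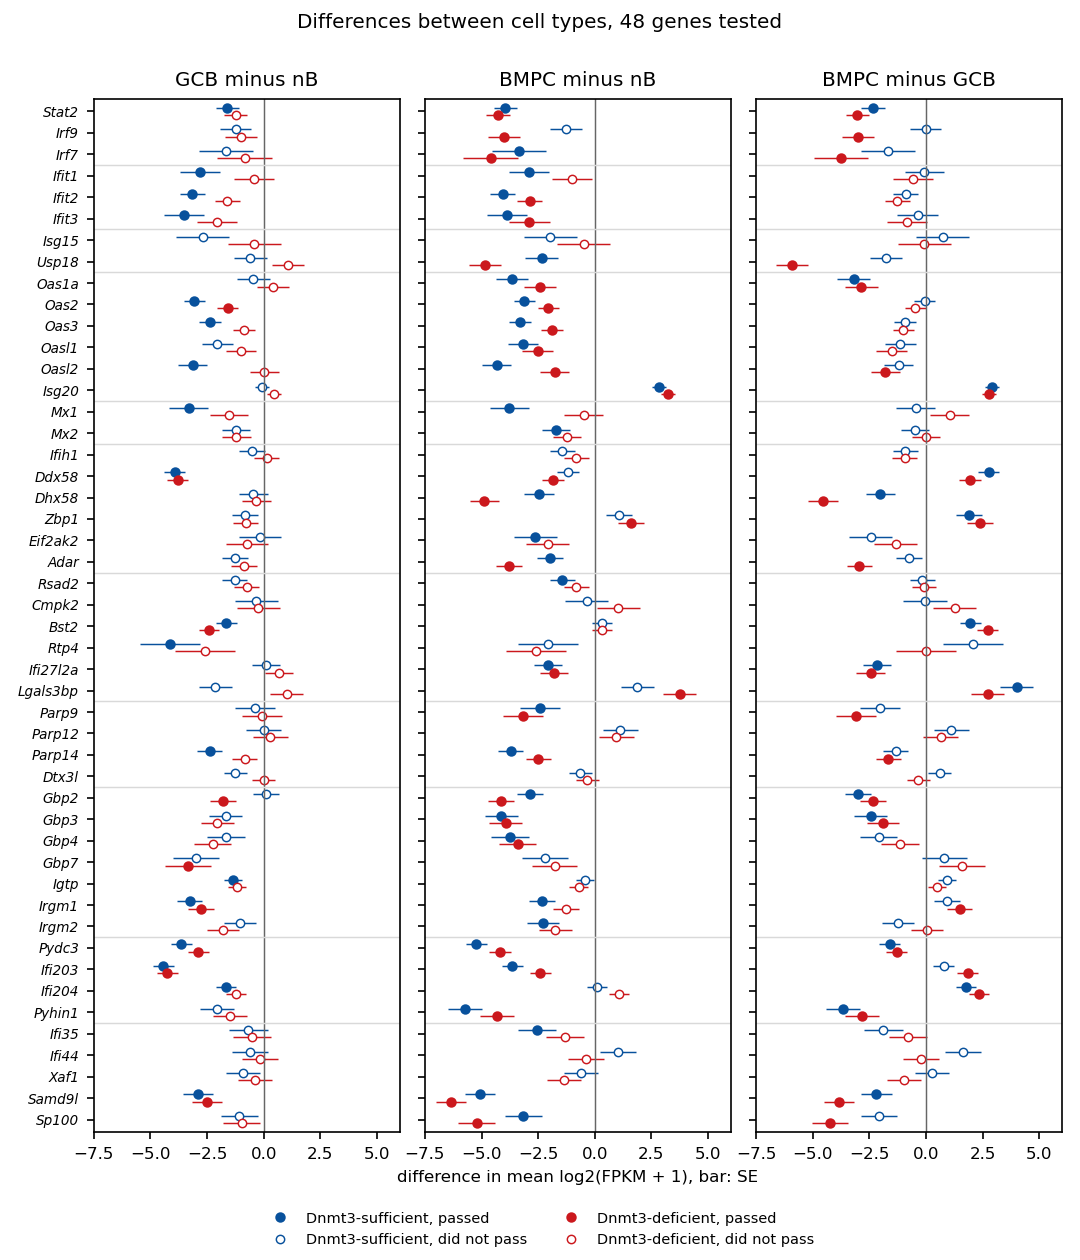
Difference in mean log2(FPKM + 1) between cell types (x axis, bars show 1 SE) for the 48 genes tested (rows, by role), in Dnmt3-sufficient (blue) and Dnmt3-deficient (red) cells. Filled points passed the test and open points did not. Most points of GCB minus nB and BMPC minus nB lie below 0, while Isg20 lies far above 0 in both panels that contain BMPC.

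The subunits of ISGF3 and its amplifier Irf7 were called lower in BMPC than in nB in at least 1 genotype. Stat2 was at 58.4, 43.1 and 76.9 FPKM in sufficient nB, 19.4, 18.3 and 17.5 in GCB and, in BMPC, 3.31, 5.08 and 1.13. Without Dnmt3 it was at 48.1, 35.9 and 41.5 in nB, 13.4, 20.2 and 18.3 in GCB and, in BMPC, 3.62, 1.34 and 0. The 3 cell types did not overlap in either genotype. Stat2 fell from nB to GCB with Dnmt3 (log2 difference -1.60, SE 0.52, adjusted p = 0.0463), a call lost when any of the 6 libraries was left out, and did not pass without Dnmt3 (log2 difference -1.24). It fell from nB to BMPC in both genotypes (log2 difference -3.95, SE 0.52, adjusted p = 2e-05 with Dnmt3, and log2 difference -4.27, SE 0.52, adjusted p = 1.05e-05 without). Irf9, which brings the complex to DNA, was at 34.3, 37.6 and 75 in sufficient nB, 17.2, 18 and 21.7 in GCB and, in BMPC, 27.8, 11.1 and 20.7. Its deficient values were 65.1, 45.5 and 44 in nB, 20.9, 27.7 and 26.1 in GCB and, in BMPC, 14.3, 0 and 1.14. Irf9 was called lower in BMPC than in nB only without Dnmt3 (log2 difference -4.02, SE 0.70, adjusted p = 0.000314), and the log2 difference with Dnmt3 was -1.26. Irf7, the factor that drives later interferon production, was at 52.6, 166 and 294 in sufficient nB and 95.3, 62.2 and 95.7 in deficient nB. In GCB it was at 35.4, 34.3 and 62.6 with Dnmt3 and 35.8, 60.8 and 44 without. In BMPC it was at 28.8, 1.11 and 38.3 with and 0, 0 and 40.7 without. Replicate 2 of sufficient BMPC and replicates 1 and 2 of deficient BMPC stood at or near 0 while the other 3 did not. Irf7 was called lower in BMPC than in nB in both genotypes (log2 difference -3.36, SE 1.20, adjusted p = 0.0361 with Dnmt3, and log2 difference -4.60, SE 1.20, adjusted p = 0.00666 without).

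The Ifit genes, several of whose proteins bind foreign RNA, were highest on average in nB and were spread widely there. Ifit3 was at 13.7, 36.2 and 94.1 FPKM in sufficient nB, 0.899, 5.24 and 1.95 in GCB and, in BMPC, 0.228, 0 and 12.3. Without Dnmt3 it was at 6.33, 2.92 and 13 in nB, 0.66, 2.35 and 0 in GCB and 0 in all 3 BMPC libraries. Its nB and GCB libraries did not overlap with Dnmt3. Ifit2 was at 9.72, 23.1 and 33.6 in sufficient nB, 1.96, 0.696 and 1.5 in GCB and, in BMPC, 0.692, 0.0666 and 0.0698. All 3 Ifit genes were called lower in GCB than in nB with Dnmt3, with log2 differences of -2.82 for Ifit1, -3.16 for Ifit2 and -3.51 for Ifit3. None of the 3 was called between GCB and nB without Dnmt3. Of all genes, 6.93% were called lower in GCB than in nB with Dnmt3 and 6.61% without. In BMPC against nB 3 of 3 Ifit genes were called lower with Dnmt3 (27.6% of all genes) and 2 of 3 without (30.6%).

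Of the ISG15 pair, the modifier itself was not called in any comparison, and its values ran from 0 to 39.1 FPKM. Usp18, the protease that removes ISG15 and restrains the receptor, was called in BMPC and not between GCB and nB. It was at 51.2, 62.6 and 66.4 in sufficient nB, 31.3, 25 and 78 in GCB and, in BMPC, 2.06, 27 and 18.5. Without Dnmt3 it was at 27.4, 25.3 and 31.3 in nB, 92, 107 and 21.2 in GCB and 0 in all 3 BMPC libraries. Usp18 was 3.79-fold lower in BMPC than in nB by mean FPKM with Dnmt3 (log2 difference -2.35, SE 0.72, adjusted p = 0.016). Without Dnmt3 it was at least 27.7-fold lower than in nB (adjusted p = 7.21e-05) and at least 72.7-fold lower than in GCB (adjusted p = 1.18e-05), bounds set by 3 reads per library.

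In the OAS group, whose founding enzymes make oligoadenylates that activate RNase L, 5 of 6 tested genes were called lower in BMPC than in nB in both genotypes (Oas1a, Oas2, Oas3, Oasl1 and Oasl2). Of all genes tested 27.6% were called lower there with Dnmt3 and 30.6% without, and the share called lower in both is not given here. Oas2 was also called lower in GCB than in nB in both. It was at 4.1, 5.85 and 17.8 FPKM in sufficient nB and 2.65, 1.67 and 6.38 in deficient nB. In GCB it was at 0.0505, 0 and 0.0531 with Dnmt3 and 0.405, 0.918 and 0 without, and it was 0 in all 6 BMPC libraries. Oas1a was at 14.5, 7.07 and 19.8 in GCB with Dnmt3, which overlapped its nB values of 16.9, 19.8 and 16.7, and at 15.1, 24.5 and 4.32 in GCB without. Isg20, an RNA exonuclease, was the member of the group called higher in BMPC. It was at 21, 25.1 and 27.9 in sufficient nB, 21.9, 20.5 and 28.1 in GCB and, in BMPC, 176, 148 and 236. Its deficient values were 14.8, 22.1 and 16.7 in nB, 26.9, 26.7 and 21 in GCB and, in BMPC, 125, 221 and 191. All 6 BMPC libraries lay above all 12 others. Isg20 was 7.58-fold higher in BMPC than in nB by mean FPKM with Dnmt3 (log2 difference 2.85, SE 0.31, adjusted p = 2.55e-06) and 10-fold higher without (log2 difference 3.23, SE 0.31, adjusted p = 8.23e-07).

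The dynamin-like Mx genes were low throughout. Mx1 was at 12.9, 14.6 and 11.6 FPKM in sufficient nB and 5.65, 0 and 4.86 in deficient nB. It was at most 1.32 in GCB and BMPC apart from 13.1 in replicate 3 of deficient BMPC. It was called lower with Dnmt3 in GCB (log2 difference -3.31, SE 0.85, adjusted p = 0.0123) and in BMPC (adjusted p = 0.00221), and in no comparison without Dnmt3.

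The RNA sensors did not move together. Ddx58, which encodes the sensor RIG-I, was lowest in GCB. It was at 31.6, 28.2 and 41.6 FPKM in sufficient nB, 1.54, 1.12 and 1.11 in GCB and, in BMPC, 15.4, 8.42 and 21.8. In the absence of Dnmt3 it was at 36.7, 27.6 and 27.4 in nB, 0.843, 1.41 and 1.56 in GCB and, in BMPC, 5.64, 4.38 and 16.8. No GCB library reached the lowest library of either other cell type. Ddx58 was 26.9-fold lower in GCB than in nB with Dnmt3 (log2 difference -3.93, SE 0.48, adjusted p = 2.61e-05) and 24.1-fold lower without (log2 difference -3.80, SE 0.48, adjusted p = 4.18e-05). It was 12.1-fold higher in BMPC than in GCB with Dnmt3 (log2 difference 2.76, SE 0.48, adjusted p = 0.00042) and 7.04-fold higher without (log2 difference 1.94, SE 0.48, adjusted p = 0.00556). Dhx58, which encodes the related helicase LGP2, showed another order, with 20.5, 21.9 and 52.2 in sufficient nB, 15.9, 13.7 and 40.7 in GCB and, in BMPC, 6.84, 0.674 and 10.9. Its deficient values were 31.9, 18.8 and 37.3 in nB, 16.6, 33.8 and 19.7 in GCB and 0 in all 3 BMPC libraries. Ifih1, the third member of that helicase family, stayed at or below 7.65 and was called in no comparison.

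Zbp1, a sensor of Z-form nucleic acid, was higher in BMPC than in GCB. It was at 6.86, 8.54 and 15 FPKM in sufficient GCB and 24.2, 51.5 and 46.9 in BMPC, and at 8.1, 14.5 and 2.31 in GCB and 43.6, 31.8 and 44.9 in BMPC without Dnmt3. The nB values were 9.13, 25.7 and 24.5 with Dnmt3 and 9.21, 10.1 and 20.9 without. Zbp1 passed between BMPC and GCB with Dnmt3 (log2 difference 1.91, SE 0.57, adjusted p = 0.0188) and without (log2 difference 2.39, SE 0.57, adjusted p = 0.00426). Adar, which edits adenosines in double-stranded RNA, was called lower in BMPC than in nB with Dnmt3 (log2 difference -1.99, SE 0.57, adjusted p = 0.0116) and without (log2 difference -3.80, SE 0.57, adjusted p = 8.52e-05). Its nB libraries were at 30.3, 40.6 and 37.8 with Dnmt3 and 31.5, 38.5 and 40.6 without, and its BMPC libraries at 3.17, 15.7 and 10.6 with and 3.45, 0 and 3.43 without.

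Among the membrane and secreted effectors, Bst2 and Lgals3bp were high in BMPC. Bst2, the tetherin that holds budding virions on the cell surface, was at 50.9, 78.5 and 101 FPKM in sufficient nB, 24.6, 11.1 and 43.8 in GCB and, in BMPC, 134, 76.2 and 78.1. In the absence of Dnmt3 it was at 81.4, 113 and 77.9 in nB, 16.9, 24.5 and 10.1 in GCB and, in BMPC, 87.9, 153 and 105. In both genotypes all GCB libraries lay below all nB and all BMPC libraries. Bst2 passed between GCB and nB (log2 difference -1.64, SE 0.45, adjusted p = 0.0199 with Dnmt3, and log2 difference -2.40, SE 0.45, adjusted p = 0.00153 without) and between BMPC and GCB (log2 difference 1.96, SE 0.45, adjusted p = 0.00375 with, and log2 difference 2.72, SE 0.45, adjusted p = 0.000243 without). Bst2 is also a known surface marker of plasmacytoid dendritic cells, whose defining marker Siglech is given above. In the 2 BMPC libraries with Siglech at 0, Bst2 was at 76.2 and 87.9 FPKM, while the 8 plasmacytoid dendritic markers together summed to 187 and 107, both above every GCB library. Of those 2 sums Cox6a2 was 52.3 and 75.3 and Smim5 was 108 and 24. The part of plasmacytoid dendritic cells in the level of Bst2 was not tested.

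Lgals3bp, a secreted glycoprotein that binds galectins, was at 10.4, 12.6 and 63.6 FPKM in sufficient nB, 4.2, 1.15 and 9.43 in GCB and, in BMPC, 81.3, 59.1 and 97.5. Its deficient values were 2.19, 0.986 and 12.6 in nB, 7.25, 8.67 and 7.95 in GCB and, in BMPC, 56.2, 66 and 53.7. Replicate 3 of sufficient nB stood apart from the other nB libraries and reached into the BMPC range. Lgals3bp was higher in BMPC than in GCB with Dnmt3 (log2 difference 4.01, SE 0.73, adjusted p = 0.000592) and without (log2 difference 2.73, SE 0.73, adjusted p = 0.00869). It passed against nB without Dnmt3 (log2 difference 3.75, SE 0.73, adjusted p = 0.000791), and with Dnmt3 its log2 difference was 1.87, which did not pass.

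Ifi27l2a, a small membrane protein gene of the Ifi27 family, was not called between GCB and nB and was lower in BMPC. It was at 107, 159 and 262 FPKM in sufficient nB, 143, 124 and 315 in GCB and, in BMPC, 53.7, 65.6 and 15.9. In the absence of Dnmt3 it was at 96.6, 115 and 145 in nB, 264, 214 and 116 in GCB and, in BMPC, 72.9, 10.9 and 45. It passed between BMPC and GCB (log2 difference -2.18, SE 0.62, adjusted p = 0.0146 with Dnmt3, and log2 difference -2.45, SE 0.62, adjusted p = 0.00621 without). In GENCODE vM1 46.4% of its exon bases are shared with Ifi27l2b, so its level is uncertain. Rtp4, a chaperone of membrane receptors, fell from 35.9, 86.7 and 113 in nB to 1.43, 2.58 and 6.76 in GCB with Dnmt3 (log2 difference -4.14, SE 1.32, adjusted p = 0.043), a call lost when any of the 6 libraries was left out. Rsad2 (viperin) and Cmpk2, neighbouring genes of nucleotide metabolism, stayed at or below 6.88 and 18.8, and only Rsad2 was called, lower in BMPC than in nB with Dnmt3.

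Of the PARP group, Parp14, an ADP-ribosyltransferase, was at 15.3, 16.1 and 19.5 FPKM in sufficient nB, 2.45, 2.98 and 1.96 in GCB and, in BMPC, 0, 1.54 and 0. Among deficient libraries it stood at 7.98, 6.41 and 11.5 in nB, 3.93, 3.74 and 5.18 in GCB and, in BMPC, 3.25, 0.08 and 0. It was called lower in GCB than in nB with Dnmt3 (log2 difference -2.38, SE 0.55, adjusted p = 0.00607) and lower in BMPC than in nB in both genotypes (log2 difference -3.71, SE 0.55, adjusted p = 6.19e-05 with, and log2 difference -2.50, SE 0.55, adjusted p = 0.00192 without). Parp9 and Dtx3l, whose proteins act as a complex, share 9.4% and 8.0% of their exon bases with each other. Parp9 was at 22.8, 30.4 and 29 in deficient nB, 28.3, 27.3 and 22.1 in GCB and, in BMPC, 11.5, 0 and 1.51. It was called lower in BMPC than in nB in both genotypes, and Dtx3l in no comparison. Parp12 was 0 in nB, and its 3 libraries with a value above 0 had 0.854, 9.17 and 6.07 FPKM.

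The interferon-inducible GTPases act at the membranes around intracellular pathogens. In BMPC against nB 5 of 7 genes were called lower with Dnmt3 (27.6% of all genes) and 3 of 7 without (30.6%). Gbp3 was at 25.1, 38.1 and 46.8 FPKM in sufficient nB, 8.44, 13.5 and 9.91 in GCB and, in BMPC, 0.159, 0 and 6.94. In deficient cells the values were 35.7, 46.1 and 38.4 in nB, 8.39, 10.2 and 8.24 in GCB and, in BMPC, 4.92, 0 and 2.16. It was called lower in BMPC than in nB in both genotypes (log2 difference -4.12, SE 0.71, adjusted p = 0.000257 with Dnmt3, and log2 difference -3.94, SE 0.71, adjusted p = 0.000398 without). Gbp2 was at 11.5, 6.39 and 3.31 in sufficient nB and 6.91, 6.77 and 7.12 in GCB, and 0 in all 3 BMPC libraries. In the deficient cells it was at 45.6, 20.7 and 15.5 in nB, 10.9, 3.38 and 6.6 in GCB and, in BMPC, 2, 0 and 0. With 3 reads per library as the bound, Gbp2 was at least 17.5-fold lower in sufficient BMPC than in nB (adjusted p = 0.000862).

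Irgm1, a regulator of the immunity-related GTPases, was the most abundant of the group in nB. It was at 126, 116 and 166 FPKM in sufficient nB, 17.4, 5.05 and 23.9 in GCB and, in BMPC, 59.5, 13.1 and 21. The values of deficient libraries were 93.4, 160 and 109 in nB, 13.7, 21.3 and 15.2 in GCB and, in BMPC, 27.5, 57.3 and 69.8. GCB and nB did not overlap in either genotype. Irgm1 was 8.77-fold lower in GCB than in nB with Dnmt3 (log2 difference -3.26, SE 0.56, adjusted p = 0.000571) and 7.21-fold lower without (log2 difference -2.77, SE 0.56, adjusted p = 0.00244). Gbp7 was at 18.5, 17.9 and 16.9 in deficient nB and 1.45, 1.54 and 0 in GCB, where it fell (log2 difference -3.35, SE 1.01, adjusted p = 0.0339), a call lost when any of the 6 libraries was left out. Over the 7 genes of the group, 2 were called lower in GCB than in nB with Dnmt3 (6.93% of all genes) and 3 without (6.61%).

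The PYHIN genes, most of which bind DNA through HIN domains, held large differences. Pyhin1 was at 243, 256 and 322 FPKM in sufficient nB, 66.1, 54.9 and 73 in GCB and, in BMPC, 4.04, 0 and 25.4. Among deficient libraries it stood at 256, 207 and 255 in nB, 71.3, 101 and 83.6 in GCB and, in BMPC, 13.4, 16.8 and 5.75, and the 3 cell types did not overlap in either genotype. Pyhin1 was 27.9-fold lower in BMPC than in nB with Dnmt3 (log2 difference -5.74, SE 0.75, adjusted p = 1.73e-05) and 20-fold lower without (log2 difference -4.32, SE 0.75, adjusted p = 0.000289). Its difference between GCB and nB did not pass (log2 difference -2.06 with Dnmt3 and -1.49 without).

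Pydc3 and Ifi203, whose promoter windows are shown above, were highest in nB. Pydc3 was at 34.4, 37.6 and 51.4 FPKM in sufficient nB, 1.03, 2.34 and 4.5 in GCB and, in BMPC, 0.347, 0 and 0. In deficient cells the values were 20.8, 22.5 and 33.5 in nB, 2.99, 3.49 and 1.45 in GCB and, in BMPC, 0, 0.984 and 0.504. Every nB library lay at or above 20.8, and every other library at or below 4.5. Ifi203 was at 92, 67.7 and 81.2 in sufficient nB, 1.71, 4.45 and 2.54 in GCB and, in BMPC, 3.43, 7.07 and 6.41. The values of deficient libraries were 76.9, 47.4 and 75.5 in nB, 2.6, 4.24 and 1.2 in GCB and, in BMPC, 7.99, 10.5 and 17.6. Ifi203 was 27.7-fold lower in GCB than in nB with Dnmt3 (log2 difference -4.43, SE 0.46, adjusted p = 4.68e-06) and 24.8-fold lower without (log2 difference -4.25, SE 0.46, adjusted p = 7.4e-06). Pydc3 was 15.7-fold lower in GCB than in nB with Dnmt3 (log2 difference -3.64, SE 0.47, adjusted p = 4.45e-05) and 9.69-fold lower without (log2 difference -2.89, SE 0.47, adjusted p = 0.000432). Ifi204 was low, at 0.219, 0.17 and 0.192 in sufficient GCB and 1.78, 3.17 and 4.94 in BMPC, and was called higher in BMPC than in GCB in both genotypes (log2 difference 1.78, SE 0.44, adjusted p = 0.00603 with, and log2 difference 2.32, SE 0.44, adjusted p = 0.000732 without). PYHIN genes are close relatives, and how reads of shared sequence were divided between them cannot be told from the table.

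Of the remaining genes, Samd9l and Sp100 were lower in BMPC. Samd9l, a negative regulator of growth, was at 136, 70.9 and 118 FPKM in sufficient nB, 12.1, 9.45 and 20.3 in GCB and, in BMPC, 1.28, 11.2 and 0.103. In the absence of Dnmt3 it was at 91.1, 61.5 and 95.2 in nB, 7.86, 21.8 and 13.9 in GCB and 0 in all 3 BMPC libraries. It was 25.9-fold lower in BMPC than in nB with Dnmt3 (log2 difference -5.08, SE 0.67, adjusted p = 1.92e-05) and at least 246-fold lower without (adjusted p = 2.33e-06). Sp100, a component of nuclear bodies, was at 275, 292 and 440 in sufficient nB, 137, 166 and 164 in GCB and, in BMPC, 20.7, 52.5 and 42.1. Among deficient libraries it stood at 324, 309 and 293 in nB, 146, 181 and 147 in GCB and, in BMPC, 22.9, 23.6 and 0. Sp100 was lower in BMPC than in nB with Dnmt3 (log2 difference -3.16, SE 0.81, adjusted p = 0.00561) and without (log2 difference -5.21, SE 0.81, adjusted p = 0.000112). Ifi35 was called lower in BMPC than in nB with Dnmt3 only, and Ifi44 and Xaf1 were called in no comparison.

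The second question was whether loss of Dnmt3a and Dnmt3b changed these genes within a cell type. In nB 0 of the 48 were called, where 0.0521% of all genes tested were called higher and 0% lower in the deficient cells. Unadjusted p was under 0.05 for 9 genes (2.71% of all genes tested) by limma and for 8 by voom on the reads recovered from FPKM, which also called 0. Of the 48, 38 had a negative log2 difference (deficient minus sufficient), 9 a positive one, and the median was -0.46 against 0.00 for all genes. For 10 genes all 3 deficient libraries lay below all 3 sufficient ones (4.17% of all genes tested did so), and for 2, Gbp2 and Irgm2, all 3 lay above (4.66% of all genes).

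The genes at an unadjusted p under 0.05 in nB were mostly of the Ifit and OAS groups. Ifit1 was at 6.29, 11.4 and 45.4 FPKM with Dnmt3 and 0.0474, 0.162 and 5.55 without (log2 difference -3.01, SE 0.88, adjusted p = 0.711). Oasl2 was at 12, 16.9 and 34.3 with and 0.519, 7.23 and 4.8 without (log2 difference -2.27, SE 0.64, adjusted p = 0.676), the lowest adjusted p of the list in nB. Oas3 was at 5.81, 11.7 and 11 with and 3.67, 1.7 and 2.93 without (log2 difference -1.46, SE 0.48, adjusted p = 0.897). None of these differences passed. The values of Ifit3 and Mx1 given above overlapped in neither case, with log2 differences of -2.34 and -2.04. Ifit2, Oas2 and Lgals3bp had log2 differences of -1.50, -1.06 and -2.29, with overlapping groups. Gbp2 went the other way, at 11.5, 6.39 and 3.31 with Dnmt3 and 45.6, 20.7 and 15.5 without (log2 difference 1.80, SE 0.57, adjusted p = 0.849).

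Replicate 3 of sufficient nB weighed on the median, which was -0.16 without that library and between -0.28 and -0.55 with any other left out, and 0 genes were called in each case. That library also had the highest sum of plasmacytoid dendritic markers, 249 FPKM, against 97.2 and 46.7 in the other sufficient nB libraries and 87.7, 187 and 117 in the deficient ones. It was likewise the highest nB library in monocyte and macrophage markers (215, against 38.3 to 156) and in early B markers (28.5, against 3.2 to 15.2). It was not the highest in T cell, natural killer cell or erythroid markers. Replicate 2 of deficient nB, with the second highest plasmacytoid dendritic sum, had the lowest mean level of the list in nB, 3.71. Erythroid marker sums did not overlap between the genotypes of nB, at 55.6, 56.3 and 46.3 with Dnmt3 and 88.3, 197 and 315 without. The part of these cells was not tested.

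**Figure D5:**
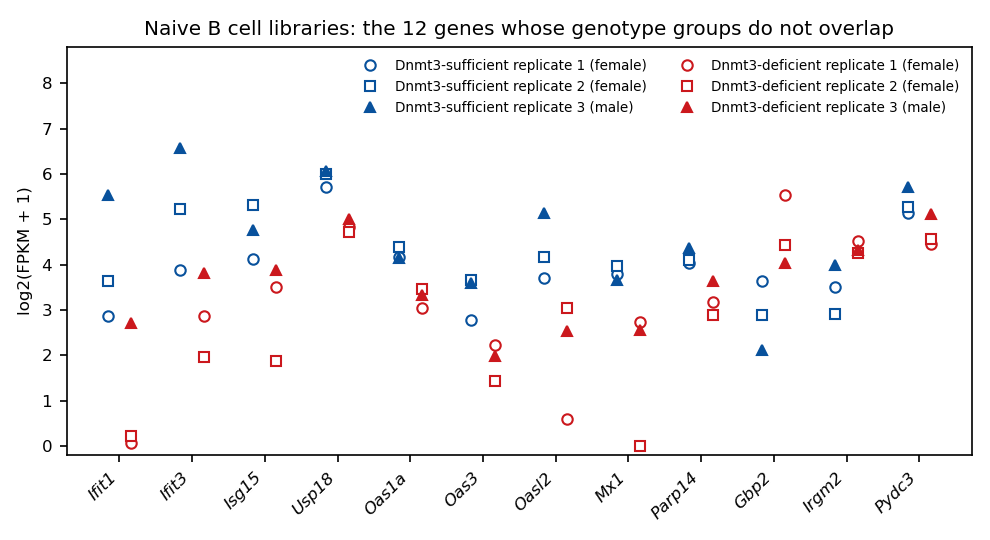
log2(FPKM + 1) (y axis) in each of the 6 nB libraries for the 12 genes (x axis) whose Dnmt3-sufficient (blue) and Dnmt3-deficient (red) libraries do not overlap, with 1 symbol per replicate and filled symbols for male mice. The deficient libraries are lower for 10 genes and higher for Gbp2 and Irgm2, and none of these differences passed the adjusted test.

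In GCB 0 of the 48 genes were called between genotypes, as were 0% of all genes tested. Unadjusted p was under 0.05 for 0 genes by limma (1.08% of all genes tested) and 0 by voom, and the median log2 difference was 0.08 against 0.00. The median changed sign with single libraries left out, at -0.04 without replicate 2 of deficient GCB or replicate 2 of sufficient GCB and -0.01 without replicate 1 of sufficient GCB. For 3 genes, Parp14, Dtx3l and Ifi204, all 3 deficient libraries lay above all 3 sufficient ones (5.58% of all genes tested did so), and for 0 all 3 lay below (5.05%). Dtx3l was at 7.41, 6.29 and 9.94 FPKM with Dnmt3 and 13.9, 11.8 and 14.7 without. The sufficient and deficient values of Usp18, Ifi27l2a and Oas1a given above overlapped between the genotypes.

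In BMPC 3 genes were called lower without Dnmt3 and 0 higher, against 2.65% and 1.34% of all genes tested. The 3 were Usp18, Irf9 and Dhx58. Unadjusted p was under 0.05 for 6 of the 48 by limma (20.3% of all genes tested) and for 4 by voom. For 4 genes all 3 deficient libraries lay below all 3 sufficient ones (7.31% of all genes tested did so), and for 1 all 3 lay above (3.02%). With replicate 2 of deficient BMPC or replicate 3 of sufficient BMPC left out, 2 were called lower and 1 higher. Usp18 went from 2.06, 27 and 18.5 FPKM to 0 in all 3 deficient libraries, which is at least 15.7-fold lower (adjusted p = 0.00896), where 3 reads would have been 1.04, 1.25 and 0.748 FPKM. Dhx58 went from 6.84, 0.674 and 10.9 to 0 in all 3, which is at least 9.35-fold lower (adjusted p = 0.0443), where 3 reads would have been 0.673, 0.811 and 0.485 FPKM. Irf9 went from 27.8, 11.1 and 20.7 to 14.3, 0 and 1.14, and its groups overlapped (log2 difference -2.62, SE 0.70, adjusted p = 0.0443).

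Voom on recovered reads called 0 of the 48 (lowest adjusted p = 0.0638), and the fits to the BMPC libraries alone and with a quality weight per library also called 0. The call of Usp18 held with each library left out, whereas that of Dhx58 was lost without replicate 1, 2 or 3 of deficient BMPC and without replicate 1 or 3 of sufficient BMPC. Irf9 was lost without replicate 2 or 3 of deficient BMPC and without replicate 1 or 3 of sufficient BMPC. Its call held under 1 of the 8 alternatives and was also lost with sex as a covariate. The deficient BMPC libraries held 1632925, 1355231 and 2265945 and the sufficient ones 2196198, 3803197 and 3629318 reads, so that 2 of the 3 deficient libraries lay below all 3 sufficient ones and the ranges overlapped. Marker sums also differed without overlap between the genotypes of BMPC. Plasma cell markers summed to 18915 to 29493 FPKM with Dnmt3 and 33952 to 51504 without, pan-B markers to 1172 to 1650 and 1733 to 1846, monocyte and macrophage markers to 1044 to 1593 and 1713 to 2905, and natural killer cell markers to 93.4 to 171 and 26.3 to 78.7. Single genes made up most of 2 of these sums. Jchain was 16189 to 25611 with Dnmt3 and 29771 to 46609 without, and Ly6c2 was 976 to 1516 and 1608 to 2678. Of the other plasma cell markers, Mzb1 and Tnfrsf17 were higher without Dnmt3 and did not overlap, while Sdc1, Xbp1 and Prdm1 overlapped. Irf4 was lower, at 37.3, 55.2 and 44.1 with Dnmt3 and 14.5, 0.315 and 27.9 without. The part of depth and of the cell types marked by these genes was not tested. Samd9l was at 1.28, 11.2 and 0.103 with Dnmt3 and 0 in all 3 deficient libraries, and did not pass (adjusted p = 0.165). The median over the list was -0.02 against -0.05 for all genes.

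Differences between the genotype changes of 2 cell types were tested as interactions. Of the 48 genes 0 were called in any of the 3, against 0% of all genes for GCB and nB, 0.555% for BMPC and nB and 0.425% for BMPC and GCB. Unadjusted p was under 0.05 for 5, 6 and 4 genes by limma (1.77%, 11.9% and 9.43% of all genes tested). By voom these counts were 3, 7 and 4, and 0 genes were called as well. With 1 library left out, the interactions with BMPC called 0 or 1 gene. These tests therefore do not show that the cell type differences of these genes depend on genotype, although more genes passed in one genotype than in the other.

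The genes that carry the signal were read from lists of the pathway. Their counts are to be read against the shares of all genes called lower, which were 6.93% with Dnmt3 and 6.61% without in GCB against nB, and 27.6% and 30.6% in BMPC against nB. Of 17 interferon ligand genes in the table, 0 exceeded 1 FPKM in 2 libraries, and 37 reads in all 18 libraries fell on 2 of them (35 on Ifnk and 2 on Ifnz). Of 7 receptor and kinase genes, 4 were called lower in GCB than in nB with Dnmt3 and 3 without, and 4 and 4 in BMPC than in nB, with 0 higher. Ifnar1 was at 32.6, 38 and 49.4 FPKM in sufficient nB, 8.16, 4.57 and 3.54 in GCB and, in BMPC, 0.451, 16.1 and 6.58, and fell in GCB (log2 difference -2.72, SE 0.68, adjusted p = 0.0103). Jak1 was at 164, 149 and 130 in nB, 57.5, 77 and 47.1 in GCB and, in BMPC, 23.9, 24.4 and 25.7 of the same genotype, without overlap, and was called lower at each step (log2 difference -1.30, SE 0.40, adjusted p = 0.0354 for GCB against nB, and log2 difference -1.23, SE 0.40, adjusted p = 0.0271 for BMPC against GCB).

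Of 12 tested STAT and IRF genes outside the list, 9 were called lower in BMPC than in nB with Dnmt3 and 8 without, and 2 in GCB than in nB in each genotype (Stat4 and Irf1). Irf4, a plasma cell factor, was the only gene of that list called higher in BMPC than in GCB, with Dnmt3 (log2 difference 3.05, SE 0.79, adjusted p = 0.00787). Of 16 genes of nucleic acid sensing, 11 were called lower in BMPC than in nB with Dnmt3 (27.6% of all genes) and 6 without (30.6%), the latter a share close to that of all genes. Unc93b1, which carries endosomal Toll-like receptors, was lower in GCB and BMPC in both genotypes. Between genotypes in BMPC, the kinase Tbk1 (log2 difference -2.83, SE 0.53, adjusted p = 0.00605) and the adaptor Myd88 (log2 difference -2.30, SE 0.62, adjusted p = 0.0456) were called lower without Dnmt3, and Pias1, a SUMO ligase that restrains STAT factors, was called higher (log2 difference 1.49, SE 0.37, adjusted p = 0.0327), against 2.65% of all genes lower and 1.34% higher. Myd88 was at 15.5, 16.4 and 26.2 FPKM in sufficient BMPC and 9.32, 0 and 5.33 in deficient BMPC. Whether these calls hold under the alternatives or with a library left out is not given here. Of the 3 calls of the list in this comparison, 0 held under all alternatives. Of 13 tested negative regulators, 6 were called lower in BMPC than in nB with Dnmt3 (27.6% of all genes) and 7 without (30.6%), with 0 higher in that comparison.

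A further 46 tested interferon-induced genes were read in the same way. Of these 11 were called lower and 0 higher in GCB than in nB with Dnmt3 (6.93% and 7.22% of all genes), and 9 and 1 without (6.61% and 6.31%). In BMPC against nB 23 were called lower in each genotype (27.6% of all genes with Dnmt3 and 30.6% without), and 4 higher with Dnmt3 (9.74%) and 5 without (6.85%). The 4 were Ifitm1, Ifitm2 and Ifitm3, membrane proteins that block viral entry, and Ly6a, which encodes Sca-1. Ifitm2 was at 0, 0.208 and 1.42 FPKM in sufficient nB, 1.07, 0 and 0.188 in GCB and, in BMPC, 261, 311 and 425. Ifitm3 was at 6.23, 15.7 and 16.3 in nB, 6.24, 4.64 and 19.5 in GCB and, in BMPC, 222, 273 and 219. In both genes all 3 BMPC libraries lay above all others of the genotype (log2 difference 7.92, SE 0.59, adjusted p = 6.74e-08 for Ifitm2 and log2 difference 4.66, SE 0.59, adjusted p = 2.02e-05 for Ifitm3 against GCB). Ly6a was at 626, 520 and 629 in nB, 333, 388 and 555 in GCB and, in BMPC, 2891, 2200 and 2019 (log2 difference 1.99, SE 0.19, adjusted p = 7.51e-07 against nB). These genes are also expressed by other bone marrow cells, and BMPC libraries held erythroid and neutrophil markers at the levels given above. The part of those cells was not tested.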

How the data were processed

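RNA of 5000 sorted cells per library was sequenced in 18 libraries, 3 per group. Per the study's methods, the authors aligned reads to mm9 with TopHat and counted them over exons of UCSC KnownGenes genes with 1 hit kept per read, and whether strand was used is not given in the sources used here. The deposited values are FPKM, and the submitters' processing notes name Picard, R 3.2.2 and edgeR 3.12.1. The table also holds 54 columns of fold changes and tests of the authors' own comparisons, which were not used. FPKM times exon length and depth gave whole reads (tolerance 0.01).

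Tests used limma 3.58.1 in R 4.3.3 on log2(FPKM + 1), since FPKM are not counts, with 6 group means fitted over 18 libraries, a mean-variance trend and genes above 1 FPKM in at least 2 libraries. Differences on this scale understate the change of low genes. A gene was called at a Benjamini-Hochberg adjusted p of at most 0.05 and an absolute log2 difference of at least 1. The p-values set each difference against 1 spread per gene, shared by all 6 groups. Over all genes tested, the median SD of log2(FPKM + 1) within a group was 0.78 and 0.82 in BMPC. It was 0.27 to 0.41 in the nB and GCB groups. The shared spread is thus typically smaller than that within BMPC and larger than that within nB and GCB. Genes with close copies (Ifit, Oas, Gbp, Irgm, Mx and PYHIN families) are uncertain where reads could be split. Depth was 1355231 to 8987922 reads, and a group with at most 3 reads in every library gives only a bound on a fold. Python 3.11.15 with pandas 2.3.3 was used for tables.

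Values per library are given for called genes with the largest differences (up to 8 in each direction between cell types and up to 6 between genotypes), for the ISGF3 group, for the 6 genes of highest mean, and for genes called in both genotypes up to 3 per role. The members, lists and roles were chosen with earlier results of these data known. Alternatives were a pseudocount of 0.1, no filter, a filter of 3 FPKM in 3 libraries, scaling by median of ratios, sex added to the model, quality weights for libraries, a fit without the other groups, voom on recovered reads, and each library left out. The pair names of the GCB libraries were checked as a pairing and did not pair them (correlations of deviations 0, -0.017 and 0.026). The fit was tested on simulated data with known changes, for the genotypes in GCB and for GCB against nB with Dnmt3. The simulation gave every group the same dispersion and included no comparison with BMPC, so it does not bear on the BMPC calls. The promoter windows and their starts are those of RefSeq (GRCm38.p6), and gene overlaps those of GENCODE vM1. Some items of the design and of the gene lists are not reported here by name.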

Additional observations from a re-analysis of the deposited data

How the results depend on the processing

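No called gene of the list changed direction under an alternative or with a library left out. The genotype median of GCB (0.08) changed sign with single libraries left out, with a range of -0.04 to 0.29. Between genotypes in nB and in GCB, 0 genes were called under each of the 8 alternatives and with each library left out. Between genotypes in BMPC the count of 3 became 1 with no filter and 1 with median of ratios scaling, and 0 in the fit to only the groups compared, 0 with a quality weight per library and 0 with voom, and ranged from 2 to 4 with a library left out. For GCB against nB with Dnmt3 the count of 18 became 11 with a pseudocount of 0.1 and 31 with a quality weight, with a range of 11 to 18 when a library was left out. Without Dnmt3 the count of 9 became 16 in the fit to only the groups compared, 21 with a quality weight and 14 with voom, with a range of 5 to 8. For BMPC against nB with Dnmt3 the count of 32 became 20 in the fit to only the groups compared. For BMPC against GCB without Dnmt3 the count of 25 became 13 in that fit and 15 with a quality weight. Sex as a covariate moved no count by over 1.5 times, but the call of Irf9 between genotypes in BMPC was lost with it. The cause of these moves was not tested. The interaction of BMPC with GCB called 2 genes with a pseudocount of 0.1 and 0 to 1 with a library left out, and that of BMPC with nB called 1 and 0 to 1. With a library left out the counts were 24 to 29 (BMPC against nB) and 11 to 16 (BMPC against GCB) with Dnmt3, and 25 to 29 and 19 to 23 without. The fits with the GCB pair name as a replicate block called 0 genes and changed no call. Median of ratios scaling shifted the median of all genes by 0.17 for BMPC against nB and 0.18 for BMPC against GCB without Dnmt3, and by at most 0.10 elsewhere. Relative to all genes the median of the list there was -1.05 and -0.21 after scaling, against -1.03 and -0.16 before. Calls that held under all 8 alternatives and with each library left out numbered 8, 17 and 7 with Dnmt3 and 5, 16 and 8 without (GCB against nB, BMPC against nB, BMPC against GCB), and 0 between genotypes in BMPC. The depth of the BMPC libraries limits what can be said of genes at 0 there.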
